A study of Homo sapiens with 34 samples.

Results

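CD43+ cells sorted on day 9 of a cytokine-free haematopoietic differentiation were compared with CD43+ cells sorted on day 6, in 3 samples a day, which are 6 of the 34 samples of the series. The samples of each day were taken by their labels. All came from H1, an established line of human embryonic stem cells. Embryoid bodies were attached to collagen IV, mesoderm was induced with BMP4 and VEGF, and VEGF was then the only growth factor in the medium, for both days and both sorted fractions. The study describes the 3 replicates of a population as independent. CD43- cells sorted from cultures of the same days, 3 samples a day, served as the comparison over the same interval. A sorted population is a mixture, so that in these bulk samples fewer cells of a type and less RNA per cell cannot be told apart.

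The first blood cells of the embryo arise from mesoderm and from haemogenic endothelium, a vessel lining that gives up its junctions and takes on blood identity. CD43, the sialomucin encoded by SPN, marks human haematopoietic cells soon after this step, before the pan-leukocyte phosphatase CD45 (PTPRC) appears. The primitive wave yields erythroblasts with embryonic globins, megakaryocytes and macrophages, and a following wave from progenitors of erythroid and myeloid type yields granulocytes.

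The values are tag counts that had been normalised for GC content and between samples. In every sample the same set of values occurs in another order, from 0 to 90700 with a median of 197, so a value is close to a rank, sequencing depth is unknown, and errors given below come from replicate samples alone. The 10 highest genes of a sample share the value 90700, and a difference to or from that value may be understated. Differences were computed on log2(value + 1), as day 9 minus day 6, and tested with limma. A gene is said to have risen or fallen where the adjusted p was below 0.05 and the difference was above 4-fold, which is 2 on the log2 scale. Replicates of a day correlated at Pearson r of 0.982 to 0.985 on day 6 and 0.980 to 0.983 on day 9 across genes, which are not independent replicates.

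The labels were checked first. SPN stood at 8780, 6791 and 5979 on day 6 and at 9460, 8946 and 9202 on day 9 in the CD43+ samples, against means of 32.0 ± 15.4 (SD, n = 3) and 23.0 ± 7.8 (SD, n = 3) in the CD43- samples. Both days therefore carried the transcript that the label implies. Markers of other cells were present too. The sum of 6 endothelial markers (CDH5, PECAM1, CLDN5, KDR, ESAM and EMCN) was 27443 to 36102 in day 6 CD43+ cells and 8505 to 11679 on day 9. Not all 6 followed this sum: ESAM and EMCN overlapped between the days, and PECAM1 did not pass the test. The sum of 8 mesenchymal markers (COL1A1, COL1A2, COL3A1, DCN, LUM, POSTN, PDGFRA and PDGFRB) was 58788 to 155112 on day 6 and 4194 to 21873 on day 9, against 197171 to 282354 over the CD43- samples. This sum is nearly all collagen I and III: DCN was higher on day 9, at 30, 71 and 117 after 12, 14 and 24, and POSTN, LUM and PDGFRA overlapped between the days. None of these markers was at 0 in all samples of a day, and how far cells of these kinds within the CD43+ gate contributed to the results below was not tested. The 3 markers of undifferentiated cells (POU5F1, NANOG and SOX2) summed to 43 to 52 on day 6 and 61 to 103 on day 9.

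**Figure D1:**
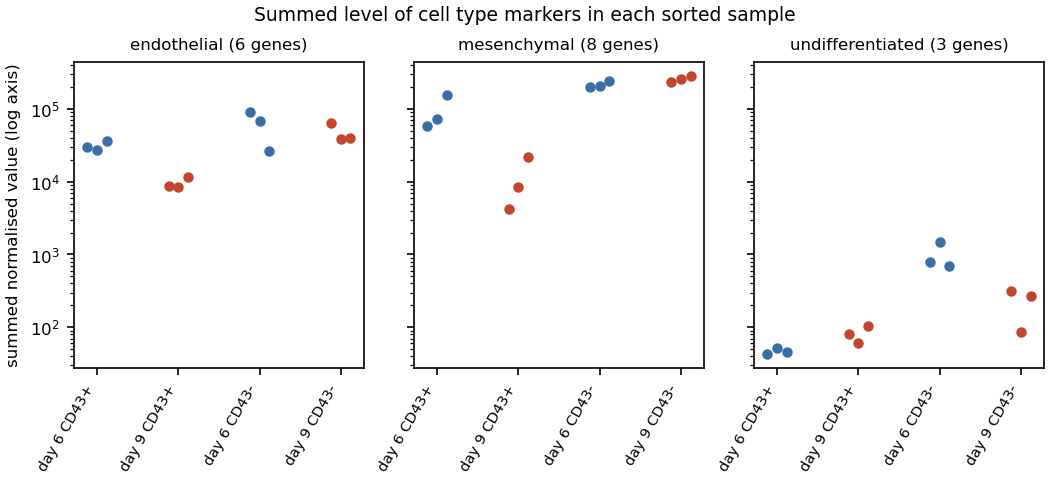
Summed normalised value (log axis) of endothelial, mesenchymal and undifferentiated markers, 1 point a sample, for CD43+ and CD43- cells of day 6 (blue) and day 9 (red). Endothelial and mesenchymal sums of CD43+ cells are lower on day 9, with no overlap of the days, and collagens make up nearly all of the mesenchymal sum.

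Over the whole table about as many genes rose as fell, while the gene lists differed in direction. Of 19788 genes tested, 704 rose (3.56%) and 786 fell (3.97%), of which 610 and 698 were protein-coding. The 3 values of 1 day lay wholly above the 3 of the other in 687 of the risen and 764 of the fallen genes. Over all genes tested, day 9 lay wholly above in 26.5% and wholly below in 24.7%. Genes past the 4-fold threshold mostly separate by selection, so these counts are no further support. The median log2 difference over all genes tested was 0.01. Among the gene lists, endothelial, Notch, axon guidance and matrix genes had negative medians, while megakaryocyte, granulocyte, myeloid, mast cell and interferon response genes had positive ones. The 10 transcription factors that head the blood programme did not pass the test in either direction, though day 9 lay wholly above day 6 in 4 and wholly below in 5.

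**Figure D2:**
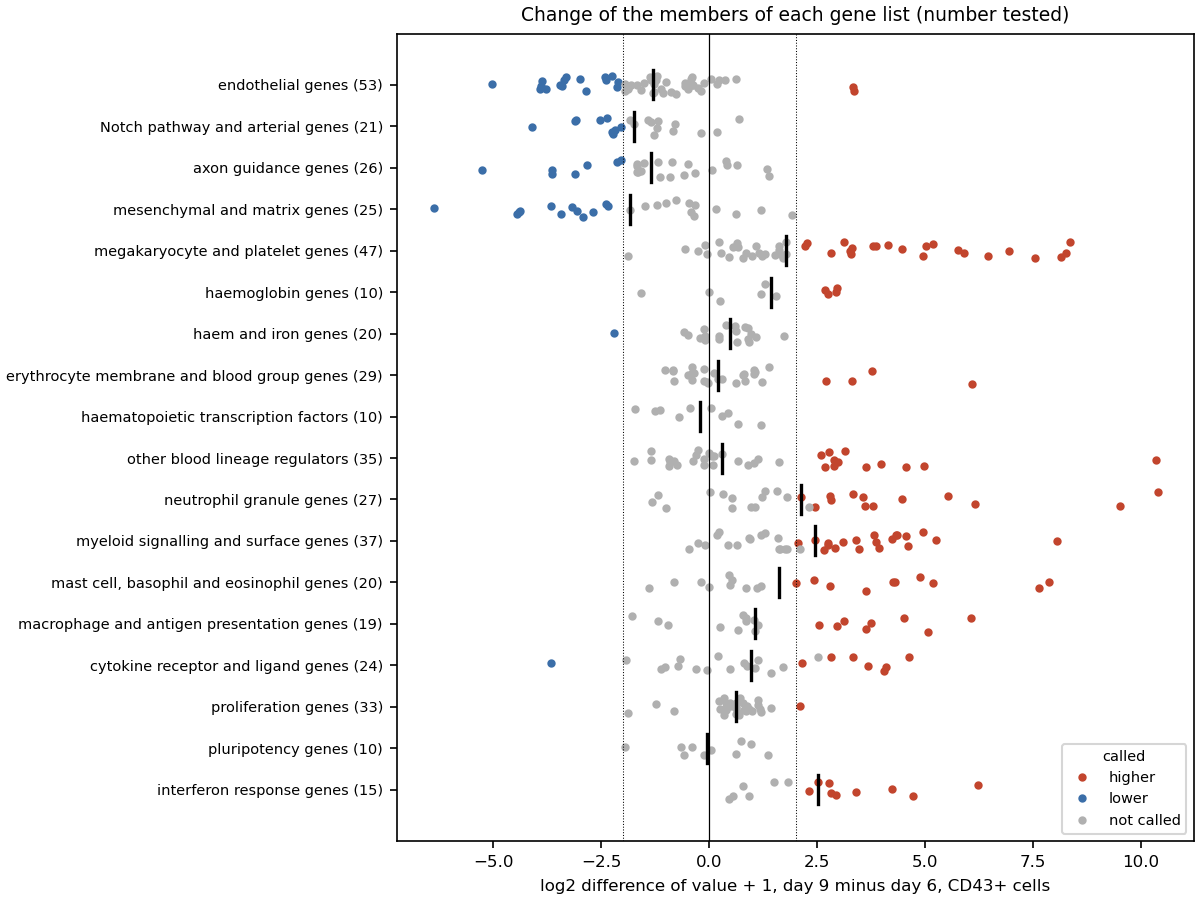
Log2 difference of value + 1 between day 9 and day 6 in CD43+ cells for every tested member of 18 gene lists, 1 point a gene, red where it rose, blue where it fell and grey where it passed neither threshold. Black bars give the median of a list and dotted lines the 4-fold threshold. Falls are concentrated in the top 4 lists and rises in the megakaryocyte, myeloid, granulocyte and interferon lists.

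Endothelial genes were the first group of interest. Of 53 tested, 16 fell (30.2%, beside 3.97% of all genes) and 2 rose (3.77%, beside 3.56%). The list's median was -1.30 beside 0.01 over all genes. The falls ran through every role: 8 of 24 junction and surface genes, 4 of 9 VEGF and angiopoietin receptors and ligands, 2 of 12 transcription factors and 2 of 8 secreted or intracellular genes. The summed mesenchymal markers, mostly collagens, were lower on day 9 too, as given above.

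CDH5 (chromosome 16, 66366622 to 66404786 in GRCh38), the cadherin of endothelial adherens junctions, stood at 5644, 4481 and 6144 on day 6 and at 440, 457 and 584 on day 9, a log2 difference of -3.45 (SE 0.37, limma adjusted p = 5.05e-08). The days did not come near each other for this gene. FLT1, a VEGF receptor that also acts as a decoy, was at 7622, 5186 and 9227 and then at 380, 473 and 649 (-3.87, SE 0.33, adjusted p = 1.50e-09). KDR, the main signalling receptor for VEGF, stayed high on day 9 despite its fall, at 2974, 2484 and 5188 after 15842, 15842 and 22812 (-2.41, SE 0.36, adjusted p = 7.45e-06). SOX7 and SOX17, related factors of haemogenic endothelium, had log2 differences of -5.04 (SE 0.36, adjusted p = 6.25e-11) and -3.89 (SE 0.56, adjusted p = 5.47e-06). SOX7 went from 1142, 1171 and 1526 to 27, 34 and 58, and SOX17 from 575, 235 and 151 to 8, 14 and 46. APLNR, the apelin receptor of early mesoderm and vessels, was at 2588, 2288 and 4899 and then at 200, 182 and 232. Claudin 5 (CLDN5), the tight junction protein, was at 436, 274 and 185 and then at 32, 6 and 96. In NOS3, the endothelial nitric oxide synthase, the days were again apart, with 949, 1026 and 1555 before and 74, 176 and 104 after.

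Several genes of endothelium, some of them shared with blood, did not pass the test. CD34, the sialomucin of stem cells and vessels, was at 3517, 2128 and 2826 on day 6 and 3324, 2636 and 3517 on day 9 (0.18, SE 0.34, adjusted p = 0.744), and the days overlapped. PECAM1, an adhesion molecule of vessels, platelets and leukocytes, went from 5704, 5314 and 5641 to 4078, 4116 and 4329 (-0.41, SE 0.34, adjusted p = 0.412). TIE1, an endothelial receptor kinase, was at 6006, 4716 and 5703 and then at 3684, 4374 and 4241 (-0.41, SE 0.27, adjusted p = 0.283). PLVAP, the protein of endothelial fenestrae, went from 9693, 6556 and 7294 to 2202, 1560 and 2350. Its difference of -1.95 (SE 0.67, adjusted p = 0.028) was past the adjusted p but just below 4-fold. A multimerin and a hyaluronan receptor rose: MMRN1, which is also a platelet granule protein, went from 1874, 1162 and 1570 to 10442, 17368 and 20424, and LYVE1 from 32, 6 and 2 to 85, 60 and 130.

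The promoter of FLT1 is shown as that of a strongly fallen endothelial gene with an entry in the RefSeq promoter table (GRCh38.p14), 250 bases upstream of the start on the minus strand, chr13:28495129-28495378. Capitals here and in the next promoters mark the ETS core GGAA or its complement TTCC and the GATA motif, which is GATA with A or T before it and A or G after it. Both were searched on both strands, and an overlap of the motifs was allowed.
FLT1: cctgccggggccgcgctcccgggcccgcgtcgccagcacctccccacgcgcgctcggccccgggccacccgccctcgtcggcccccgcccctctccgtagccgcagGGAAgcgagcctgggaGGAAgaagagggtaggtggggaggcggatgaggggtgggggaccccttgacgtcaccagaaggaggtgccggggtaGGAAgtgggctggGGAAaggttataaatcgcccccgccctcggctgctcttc
This window holds 4 ETS cores and no GATA motif. Of 27305 promoters of the table, 92.8% hold an ETS core and 22.9% a GATA motif in the same window, and of the 786 fallen genes 513 matched an entry, 90.3% and 23.0% of them with each.

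Notch signalling specifies arterial endothelium, with ligands on one cell activating receptors on its neighbour and HEY factors as targets. Of 21 genes tested, 9 fell (42.9%, beside 3.97% of all genes) and none rose, with a median of -1.73. Among ligands, DLL4 was at 1518, 1168 and 1296 on day 6 and at 36, 67 and 182 on day 9 (-4.10, SE 0.50, adjusted p = 4.52e-07). Of the receptors, NOTCH3 went from 3720, 3895 and 4476 to 755, 894 and 939 (-2.22, SE 0.24, adjusted p = 5.87e-08), while NOTCH1, at 5550, 5123 and 7152 and then 2550, 2104 and 3222, had a difference of -1.19 (SE 0.19, adjusted p = 3.01e-05) that is below 4-fold. NOTCH2 overlapped between the days at 1494, 1334 and 1742 and 1703, 1800 and 1696. The targets HEY1, HEY2 and HEYL fell, with log2 differences of -3.08, -2.17 and -2.24. HEY2 was no longer past the fold threshold without day 9 replicate 2 (-1.81), and HEYL was not without day 6 replicate 3 (-1.97) or day 9 replicate 1 (-1.95). Among genes of arterial and venous identity, the ephrin ligand EFNB2 went from 3482, 2716 and 2660 to 332, 272 and 428, and its venous receptor EPHB4 from 4114, 4960 and 5482 to 927, 952 and 929 (-2.36, SE 0.13, adjusted p = 8.60e-13). The gap junction genes differed, with GJA5 at 1570, 1624 and 1450 and then 337, 277 and 570, and GJA4 overlapping at 1298, 978 and 867 and 910, 846 and 936.

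Guidance cues steer axons and sprouting vessels. Of 26 such genes, 7 fell (26.9%, beside 3.97% of all genes) and none rose (median -1.35). The netrin receptor UNC5C changed most, from 758, 1315 and 1618 to 13, 36 and 56 (-5.25, SE 0.71, adjusted p = 2.04e-06). The related netrin receptor DCC was at 40, 32 and 28 and then at 0, 4 and 3. Of the Eph kinases, EPHA2 went from 1075, 1258 and 1910 to 153, 205 and 232 and EPHA4 from 92, 198 and 281 to 12, 9 and 20. PLXND1, the semaphorin receptor of vessels, kept a high level at 11996, 11186 and 13998 and 8494, 8073 and 8073 (-0.59, SE 0.22, adjusted p = 0.041). The calls of the ligands SEMA6D and NTN4 were lost without single replicates and were made on values of at most 48 and 6.

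Of 25 matrix and mesenchymal genes tested, 12 fell (48.0%, beside 3.97% of all genes) and none rose (median -1.83). Among the fallen were 5 of 7 collagens. CDH11, the cadherin of mesenchyme, was at 2743, 3108 and 6460 on day 6 and at 20, 37 and 119 on day 9 (-6.38, SE 0.42, adjusted p = 1.53e-11). COL1A1 and COL1A2 encode the chains of collagen I. COL1A1 went from 18751, 18751 and 37166 to 1014, 1756 and 3568 (-3.67, SE 0.35, adjusted p = 9.56e-09) and COL1A2 from 37186, 48056 and 90700 to 1384, 3378 and 3860. FN1, fibronectin, was at 13327, 22847 and 22847 and then at 424, 540 and 2938 (-4.44, SE 0.43, adjusted p = 9.33e-09). Not all matrix genes moved so. COL3A1, at 1952, 5706 and 25870 and then 1076, 2478 and 13324, overlapped between the days, and the receptors PDGFRA and PDGFRB were at 60, 71 and 198 and 653, 699 and 824 on day 6 and at 55, 74 and 98 and 516, 506 and 584 on day 9. COL3A1 would pass the test without day 9 replicate 3 (-2.02, adjusted p = 0.024). Replicates differed in this class within each day: all 7 collagens were highest in replicate 3 of day 6 and in replicate 3 of day 9, where 31.1% and 28.4% of all genes were.

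Megakaryocytes bud off platelets, which stick through glycoprotein receptors and release alpha granules. Of 47 megakaryocyte and platelet genes tested, 22 rose and none fell (46.8%, beside 3.56% of all genes), and the median was 1.78. Granule cargo led, with 6 of 7 members risen, followed by 10 of 17 genes of cytoskeleton, signalling and enzymes, 3 of 12 adhesion receptors and 3 of 11 signalling receptors.

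PF4 (chromosome 4, 73981077 to 73982124), the granule chemokine platelet factor 4, stood at 138, 120 and 108 on day 6 and at 6818, 5906 and 7330 on day 9 (5.77, SE 0.90, adjusted p = 1.54e-05). Its neighbour PPBP, the precursor of another granule chemokine, was at 4, 1 and 2 and then at 999, 652 and 1616 (8.36, SE 1.08, adjusted p = 1.003e-06). PF4V1, a near-identical copy of PF4, was at 0, 1 and 0 and then at 323, 380 and 359, and reads of both copies may be shared. THBS1, thrombospondin, reached the highest value of the table in all 3 day 9 samples after 1498, 1077 and 2106, so that its difference of 5.91 (SE 0.44, adjusted p = 1.05e-10) may be understated. F13A1, the clotting transglutaminase of platelets and macrophages, went from 4, 4 and 0 to 570, 341 and 835. TUBB1, the tubulin of the platelet marginal band, was at 253, 222 and 133 and then at 3320, 1972 and 3484 (3.85, SE 0.65, adjusted p = 4.38e-05). PLEK, the kinase C substrate of platelets and leukocytes, was at 325, 84 and 86 and then at 11186, 11498 and 12826 (6.46, SE 1.01, adjusted p = 1.57e-05). BIN2, a membrane-bending protein of platelets and leukocytes, went from 6, 0 and 1 to 822, 666 and 755, and CLEC1B, the receptor for podoplanin, from 4, 0 and 0 to 174, 187 and 284.

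Some adhesion receptors were already high on day 6, and others rose from lower values. ITGA2B, the platelet integrin chain CD41 and an early blood marker, was at 8678, 5703 and 6697 on day 6 and at 13319, 17356 and 15858 on day 9, and its difference of 1.16 (SE 0.45, adjusted p = 0.053) missed the test although the days did not overlap. Its partner ITGB3 was at 4610, 2896 and 3859 and then at 12010, 11506 and 12844 (1.70, SE 0.57, adjusted p = 0.024), below 4-fold. Within the receptor for von Willebrand factor, GP9 rose from 154, 69 and 30 to 1411, 1536 and 1670 (4.47, SE 0.67, adjusted p = 8.66e-06) and GP5 from 72, 46 and 38 to 484, 424 and 596 (3.28, SE 0.56, adjusted p = 4.90e-05). Their partners GP1BA and GP1BB had differences of 1.22 (SE 0.39, adjusted p = 0.019) and 1.52 (SE 0.59, adjusted p = 0.054). SELP, the P-selectin of granule membranes, went from 66, 74 and 60 to 2134, 1896 and 2550 (5.01, SE 0.80, adjusted p = 2.06e-05).

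**Figure D3:**
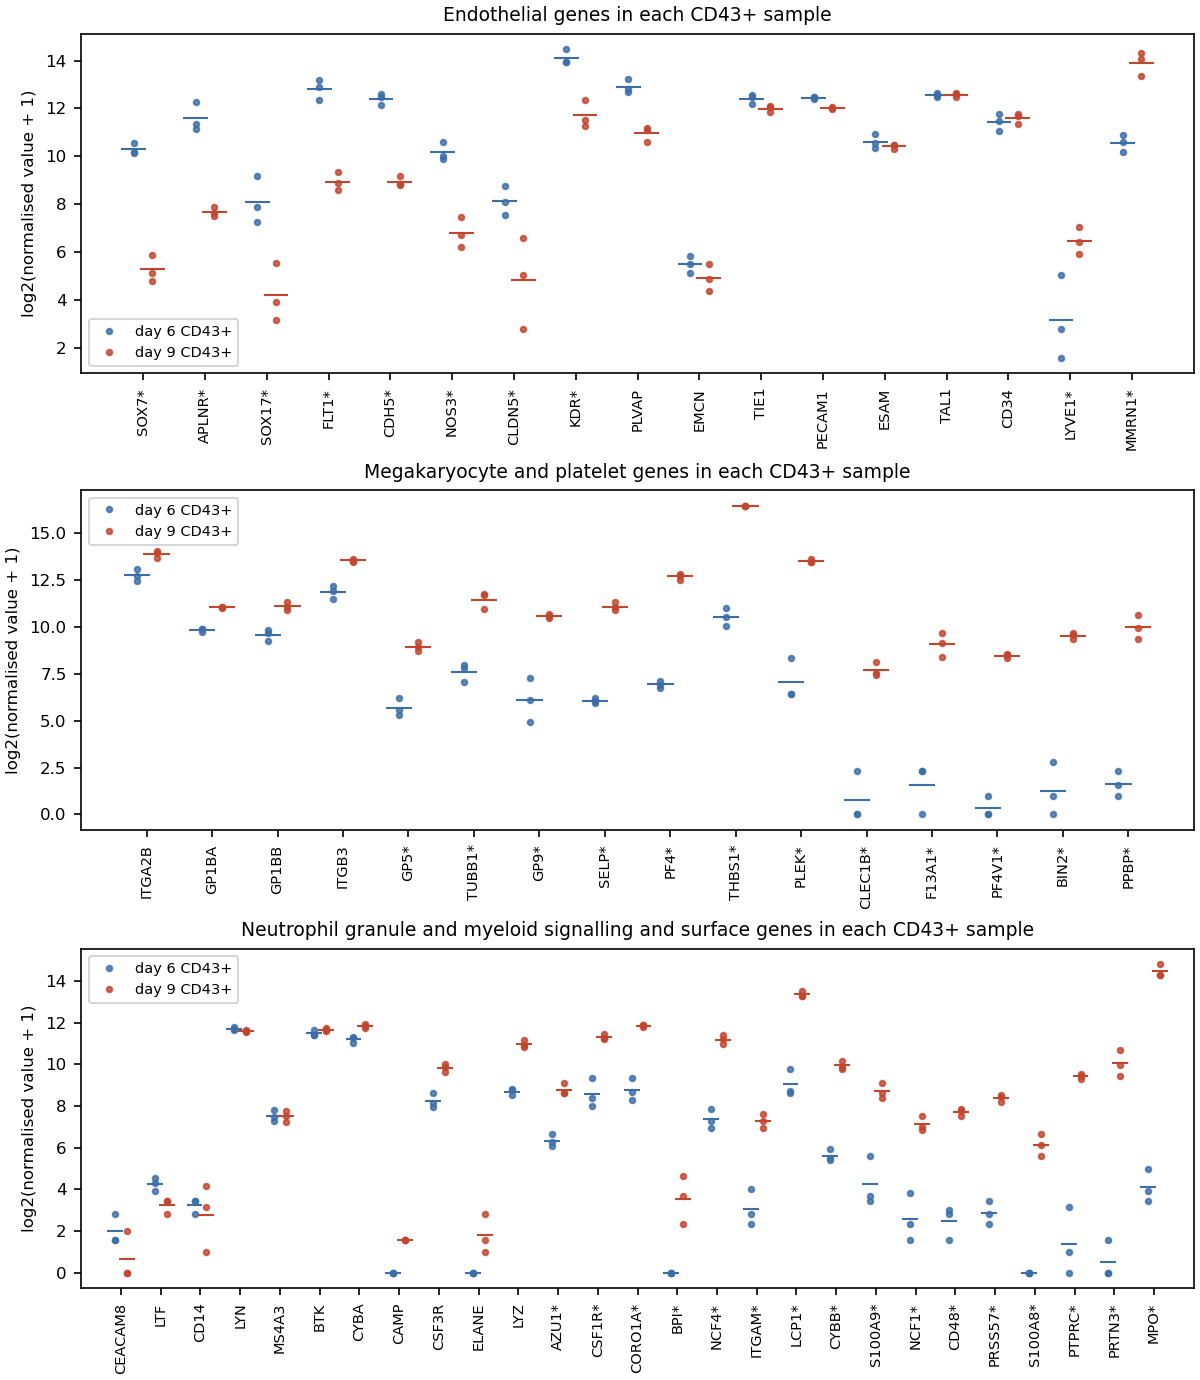
Level of the endothelial, megakaryocyte and platelet, and neutrophil granule or myeloid genes described in the text as log2(normalised value + 1), 1 point a sample and a bar for the mean of 3, blue for day 6 and red for day 9 CD43+ cells, ordered by the difference. An asterisk marks genes that rose or fell.

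The PPBP promoter is shown as that of the largest megakaryocyte rise, from chr4:73988191-73988440 on the minus strand (RefSeq, GRCh38.p14, 250 bases).
PPBP: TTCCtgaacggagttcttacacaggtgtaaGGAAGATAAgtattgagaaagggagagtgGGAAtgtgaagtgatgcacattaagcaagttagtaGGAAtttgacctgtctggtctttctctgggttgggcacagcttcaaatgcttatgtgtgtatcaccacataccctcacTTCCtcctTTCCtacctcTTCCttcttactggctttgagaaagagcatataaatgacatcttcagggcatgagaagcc
It holds 7 ETS cores and 1 GATA motif, AGATAA at positions -217 to -212 from the start, which shares its first base with the ETS core at -220 to -217. Of the 704 risen genes, 434 matched an entry, and 94.2% of them held an ETS core and 23.7% a GATA motif, beside 92.8% and 22.9% of all promoters. A match describes letters and does not show binding.

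Erythroid genes gave a mixed picture. The embryonic chain HBE1 stood at 90700 in all 6 samples, so no change could be seen. Of 10 globin genes, 4 rose (40.0%, beside 3.56% of all genes) and none fell (median 1.43). HBZ, the embryonic alpha-like chain, was at 10426, 9485 and 5476 and then at 90700, 17338 and 90700 (2.68, SE 0.85, adjusted p = 0.017). HBA2 went from 1814, 1420 and 794 to 11498, 6812 and 11498 (2.93, SE 0.86, adjusted p = 0.010), HBM from 121, 70 and 32 to 499, 330 and 523, and HBD from 682, 296 and 178 to 3576, 2012 and 2316. The call of HBZ was lost on leaving out day 6 replicate 3 or day 9 replicate 1 or 3, with adjusted p of 0.075 to 0.084, and that of HBA2 without day 6 replicate 3 (adjusted p = 0.055). Reads can be shared within the near-identical pairs HBA1 with HBA2 and HBG1 with HBG2. The adult chain HBB was low, at 110, 104 and 63 and then 42, 27 and 22 (-1.58, SE 0.51, adjusted p = 0.018).

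Of 29 genes of the erythrocyte membrane and blood groups, 4 rose (13.8%, beside 3.56% of all genes) and none fell (median 0.21). Of 20 haem and iron genes none rose and 1 fell (median 0.49), a share of 5.0%, near the 3.97% of all genes. SLC4A1, the anion exchanger band 3 of mature erythroid cells, was at 80, 96 and 48 on day 6 and at 8272, 1686 and 8797 on day 9 (6.09, SE 0.68, adjusted p = 1.06e-07). AHSP, the chaperone of alpha globin, was at 30, 24 and 13 and then at 486, 204 and 281. Dematin (DMTN), of the membrane skeleton, rose from 240, 258 and 129 to 1726, 1555 and 2935. RHAG, the Rh-associated glycoprotein, was at 5898, 7320 and 6242 and then at 4710, 5032 and 4839 (-0.41, SE 0.64, adjusted p = 0.685). ALAS2, the first enzyme of erythroid haem synthesis, was at 3748, 4028 and 2876 and then at 8671, 4234 and 7764 (0.90, SE 0.51, adjusted p = 0.194). HMOX1, the haem-degrading oxygenase, fell from 2220, 3192 and 3304 to 574, 770 and 542 (-2.20, SE 0.30, adjusted p = 2.28e-06). Day 9 replicate 2 stood apart in this lineage: 44 of 59 genes of the 3 erythroid lists (74.6%) were lowest in it, beside 29.1% of all genes, and 45 of 59 (76.3%, beside 33.5%) were lowest in day 6 replicate 3.

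The 10 transcription factors of early blood all missed the test in these cells. Each of the 10 differences was below 4-fold, and each SE pools all 11 groups. Even so, all day 9 values were above all day 6 values in 4 of them and below in 5. These are 40% and 50%, beside 26.5% and 24.7% of all genes. RUNX1, needed for blood to emerge from endothelium, was at 6910, 6575 and 7899 and then at 5186, 5549 and 5029 (-0.44, SE 0.30, adjusted p = 0.305). TAL1, the factor of haemangioblast and erythroid fate, was at 6335, 5979 and 5760 and 6220, 5760 and 6442, with the days overlapping (0.03, SE 0.42, adjusted p = 0.985). GATA1, which directs erythroid and megakaryocyte genes, was at 2865, 2616 and 2677 and then at 3858, 3487 and 3720 (0.44, SE 0.62, adjusted p = 0.652). SPI1 (PU.1), which directs myeloid genes, was at 1553, 1247 and 1332 and then at 2095, 2194 and 2264 (0.67, SE 0.90, adjusted p = 0.633). The progenitor factors GATA2 (from 10075, 9886 and 9230 to 3890, 4472 and 4839) and GFI1 (from 3346, 3301 and 3047 to 888, 945 and 1110) had differences of -1.15 (SE 0.31, adjusted p = 0.0051) and -1.72 (SE 0.47, adjusted p = 0.0062), past the adjusted p but below 4-fold. MYB was at 4504, 4652 and 4148 and then at 1821, 1837 and 1902 (-1.26, SE 0.53, adjusted p = 0.075), with no overlap of the days. GFI1B, the relative of GFI1 in erythroid and megakaryocyte cells, was at 1254, 798 and 1082 and then at 2736, 2036 and 2316 (1.19, SE 0.60, adjusted p = 0.143). LMO2 and LYL1, partners of TAL1, had differences of -0.70 (SE 0.27, adjusted p = 0.055) and 0.30 (SE 0.24, adjusted p = 0.400).

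Among 35 other lineage regulators 12 rose (34.3%, beside 3.56% of all genes) and none fell. Of these 12, 8 were among the 13 myeloid ones (median 2.68). IRF8, the factor of monocytes and dendritic cells, was listed at 0 in all day 6 samples and stood at 1179, 1368 and 1333 on day 9 (adjusted p = 6.87e-11). CEBPA, which starts the granulocyte programme, was at 152, 62 and 110 and then at 1180, 1226 and 1426 (3.64, SE 0.24, adjusted p = 1.53e-11). CEBPE, the factor of later granule genes, went from 9, 5 and 8 to 99, 169 and 120 (3.97, SE 0.59, adjusted p = 7.82e-06). IRF5 was at 6, 6 and 4 and then at 194, 223 and 170, and IRF4 at 14, 12 and 7 and then at 288, 280 and 248. BCL11A, the repressor of fetal globin, rose from 28, 20 and 14 to 188, 107 and 214 (2.97, SE 0.30, adjusted p = 2.41e-08). KLF1, the erythroid factor, was at 3108, 2804 and 2530 and then at 2612, 1828 and 2074 (-0.38, SE 0.44, adjusted p = 0.570). HOXA5, HOXA7, HOXA9 and HOXA10, which mark definitive progenitors, did not exceed 12 in any CD43+ sample of either day.

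Neutrophil granule genes turned on unevenly. Azurophil granules are filled at the promyelocyte stage with myeloperoxidase and serine proteases, and specific granules later. Of 27 genes tested, 13 rose (48.1%, beside 3.56% of all genes) and none fell (median 2.13). The risen were 10 of 15 azurophil genes and 3 of 12 genes listed for specific and gelatinase granules. The last 3 were S100A8, S100A9 and CHI3L1. MPO (chromosome 17, 58269856 to 58280935), myeloperoxidase, had the largest log2 difference of all genes, from 30, 14 and 10 to 29015, 20412 and 20412 (10.38, SE 1.0, adjusted p = 1.02e-08). PRTN3, proteinase 3, was at 0, 0 and 2 and then at 697, 1677 and 1010 (9.52, SE 1.27, adjusted p = 1.56e-06). PRSS57, a serine protease of the same granules, went from 6, 4 and 10 to 344, 370 and 294 (5.53, SE 0.68, adjusted p = 4.16e-07). AZU1, which lies beside PRTN3 in the genome, was already at 66, 76 and 101 and then at 390, 552 and 400 (2.45, SE 0.60, adjusted p = 0.0023). ELANE, neutrophil elastase of that gene cluster, was listed at 0 on day 6 and at 2, 6 and 1 on day 9 and did not pass (adjusted p = 0.014, under 4-fold on this scale).

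LYZ, lysozyme, was at 448, 436 and 365 and then at 1851, 1960 and 2340, and its difference of 2.30 (SE 1.04) missed the test in the fit of all populations (adjusted p = 0.09995) and passed it with only the CD43+ samples of both days in the fit (adjusted p = 3.38e-04). MS4A3, a surface gene of granulocyte progenitors, overlapped at 176, 220 and 156 and 186, 151 and 219. Of the genes of specific granules, LTF was at 19, 14 and 22 and then at 10, 6 and 10, CEACAM8 at 2, 2 and 6 and then at 0, 3 and 0, and CAMP at 0 and then at 2 in each sample. The calprotectin genes stand apart in this set: S100A8 was listed at 0 on day 6 and at 48, 70 and 101 on day 9, and S100A9 went from 48, 12 and 10 to 332, 398 and 560 (4.46, SE 0.73, adjusted p = 2.76e-05). BPI, listed at 0 on day 6 and at 12, 24 and 4 on day 9, was no longer called with 10 added before the log.

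The promoter of PRTN3, the largest granule rise with an entry in the table, is chr19:840749-840998 on the plus strand (RefSeq, GRCh38.p14).
PRTN3: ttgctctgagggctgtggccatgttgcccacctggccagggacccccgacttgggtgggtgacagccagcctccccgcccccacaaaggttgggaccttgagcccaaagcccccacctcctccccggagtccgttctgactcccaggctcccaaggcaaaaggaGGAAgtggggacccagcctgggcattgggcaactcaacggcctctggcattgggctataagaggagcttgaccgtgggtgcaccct
It holds 1 ETS core, at -86 to -83, and no GATA motif.

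Myeloid signalling and surface genes had the broadest rise among blood genes. Of 37 tested, 20 rose (54.1%, beside 3.56% of all genes) and none fell (median 2.46). The risen were 7 of 9 pan-leukocyte genes, 7 of 13 myeloid receptors, 4 of 6 NADPH oxidase genes and 2 of 9 signalling adaptors. PTPRC (chromosome 1, 198638671 to 198757283), which encodes CD45, was at 8, 1 and 0 on day 6 and at 749, 634 and 698 on day 9 (8.05, SE 0.92, adjusted p = 1.35e-07). No day 6 value exceeded 8 and no day 9 value was under 634. LCP1, the leukocyte plastin, was at 878, 400 and 422 and then at 10075, 11996 and 10075 (4.33, SE 0.38, adjusted p = 1.70e-09). CORO1A, the leukocyte coronin, went from 641, 414 and 310 to 3538, 3853 and 3750 (3.09, SE 0.38, adjusted p = 5.53e-07). CD48, a surface ligand of leukocytes, was at 7, 2 and 6 and then at 232, 185 and 219.

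The phagocyte oxidase makes superoxide from a membrane core and cytosolic subunits. CYBB, the catalytic core, was at 44, 60 and 41 and then at 950, 1154 and 888 (4.35, SE 0.90, adjusted p = 4.57e-04). The cytosolic subunit NCF4 went from 235, 154 and 124 to 1992, 2723 and 2387. NCF1 went from 4, 2 and 13 to 128, 113 and 185, though it has near-identical pseudogenes that can share its reads. CYBA, the partner of CYBB that many cells express, was at 2561, 2114 and 2438 and then at 3980, 3419 and 3680 (0.64, SE 0.14, adjusted p = 6.51e-04), below 4-fold. Of the receptors, CSF1R, for macrophage colony-stimulating factor, was at 658, 258 and 333 and then at 2865, 2510 and 2399 (2.75, SE 0.75, adjusted p = 0.0058). CSF3R, for granulocyte colony-stimulating factor, had a difference of 1.59 (SE 0.35, adjusted p = 9.88e-04) from 396, 248 and 284 to 1046, 930 and 791. ITGAM, the integrin chain CD11b, rose from 15, 4 and 6 to 196, 154 and 124, while CD14, the monocyte co-receptor for endotoxin, overlapped at 6, 10 and 10 and 1, 8 and 17. The kinases LYN and BTK, which relay receptor signals, overlapped between the days, at 3183, 3567 and 3370 and then 3132, 3010 and 3276 for LYN and 2700, 2754 and 3183 and then 3078, 3276 and 3448 for BTK.

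Mast cell, basophil and eosinophil genes were led by eosinophil granule proteins. Of 20 tested, 10 rose (50.0%, beside 3.56% of all genes) and none fell (median 1.61). The risen were 6 of 10 granule proteins and 4 of 10 receptors and enzymes. CLC, the protein of Charcot-Leyden crystals, was listed at 0 on day 6 and at 214, 404 and 142 on day 9 (adjusted p = 1.56e-08). RNASE2, the eosinophil-derived neurotoxin, was listed at 0 and then at 198, 186 and 212 (adjusted p = 3.60e-08). PRG3, a homologue of major basic protein, was at 10, 4 and 2 and then at 192, 274 and 150 (5.19, SE 0.76, adjusted p = 7.01e-06), and EPX, eosinophil peroxidase, at 0, 4 and 4 and then at 32, 148 and 34. PRG2, major basic protein itself, went from 146, 71 and 58 to 1378, 3460 and 989 (4.30, SE 1.35, adjusted p = 0.016), a call lost without day 6 replicate 3 (adjusted p = 0.059) or day 9 replicate 2 (adjusted p = 0.073). KIT (chromosome 4, 54657918 to 54740715), the stem cell factor receptor of progenitors and mast cells, was at 464, 374 and 222 and then at 1991, 2064 and 3108 (2.79, SE 0.37, adjusted p = 1.36e-06). Tryptase and carboxypeptidase of mast cells did not follow: TPSAB1 was at most 2, and CPA3 was at 98, 121 and 51 and then at 30, 40 and 26 (-1.40, SE 0.47, adjusted p = 0.024).

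Of 19 macrophage and antigen presentation genes 8 rose (42.1%, beside 3.56% of all genes) and none fell (median 1.05). The 3 chains of complement C1q, which macrophages make, appeared together, with C1QC going from 6, 2 and 1 to 204, 295 and 208 (6.07, SE 0.74, adjusted p = 3.80e-07) and C1QA and C1QB listed at 0 on day 6 and at 10, 56 and 18 and 40, 38 and 22 on day 9. CD163, the haemoglobin scavenger receptor, was at 36, 36 and 28 and then at 51, 54 and 80 (0.85, SE 0.72, adjusted p = 0.422), and MRC1, the mannose receptor, at 509, 497 and 560 and then at 128, 256 and 103 (-1.79, SE 0.71, adjusted p = 0.058). Of 24 cytokine receptors and ligands, 7 rose (29.2%, beside 3.56% of all genes) and 1 fell (4.17%, beside 3.97%). IL6R went from 164, 144 and 124 to 913, 1128 and 1027 (2.82, SE 0.29, adjusted p = 2.77e-08), while LIFR, another receptor of that family, fell from 778, 524 and 744 to 40, 47 and 76 (-3.66, SE 0.31, adjusted p = 8.38e-10). Their shared chain IL6ST had a difference of -1.93 (SE 0.17, adjusted p = 2.82e-09), under 4-fold. IL2RG, the common gamma chain, was at 16, 22 and 19 and then at 346, 343 and 332, and CXCL8, the neutrophil chemokine, at 24, 22 and 6 and then at 209, 262 and 153.

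Proliferation genes moved little. Only CDKN2A, an inhibitor of cell division, rose among 33 (3.03%, beside 3.56% of all genes), on values of at most 48. CDKN2A lost the call without day 6 replicate 2 or 3 or day 9 replicate 1. Its adjusted p was then 0.059 to 0.102, at log2 differences of 1.78 to 2.03. Still, 29 of the 33 had all day 9 values above all day 6 values (87.9%, beside 26.5% of all genes), with a median of 0.63. MKI67, the marker of cycling cells, was at 5635, 5190 and 5034 and then at 8794, 8497 and 8497 (0.70, SE 0.22, adjusted p = 0.018). All 10 pluripotency genes missed the test, with POU5F1 at 40, 47 and 32 and then 70, 50 and 83. Of 15 interferon response genes 9 rose and none fell (median 2.52), and 14 of 15 had separate days. MX1, an antiviral GTPase, was at 4, 6 and 4 on day 6 and at 427, 418 and 414 on day 9 (6.23, SE 0.45, adjusted p = 6.31e-11). IFIT2 went from 6, 2 and 6 to 213, 88 and 140 (4.72, SE 0.51, adjusted p = 6.10e-08) and IFI6 from 114, 128 and 170 to 908, 1043 and 854.

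The largest rises over the whole table with separate days were, in order, MPO, IRF8, PRTN3, P2RY8, PPBP, BIN2, PF4V1, PTPRC, S100B and CLC. P2RY8, a receptor of blood cells, was listed at 0 and then at 434, 381 and 480, and S100B, a calcium-binding protein, was at 2, 1 and 0 and then at 424, 462 and 421. The order depends on the 1 added before the log, and of the 704 risen genes 82 were listed at 0 in all day 6 samples. The largest falls were RGS5, HAPLN1, CDH11, BMPER, AKR1B10, LINC00479, FZD10, FCN3, NTS and CYP24A1. RGS5, a regulator of G protein signalling in pericytes, was at 4295, 6922 and 7165 and then at 24, 20 and 41 (-7.73, SE 0.25, adjusted p = 3.50e-18). HAPLN1, a link protein of hyaluronan matrix, went from 12014, 22842 and 37186 to 133, 140 and 294 (-6.93, SE 0.34, adjusted p = 9.42e-14). BMPER, a BMP-binding protein of endothelium, was at 992, 970 and 1550 and then at 19, 6 and 22, and NTS, the precursor of neurotensin, at 3349, 4545 and 3117 and then at 67, 90 and 58. Both lists hold genes of the classes above and some that belong to none.

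In CD43- cells fewer genes were called over these 3 days. There 347 of 19788 genes passed the test (1.75%), 217 higher and 130 lower. Of the genes that rose in CD43+ cells, 40 also rose in CD43- cells and 7 fell there, and of those that fell in CD43+ cells, 33 also fell and 7 rose. The difference between the changes of both fractions, tested in the same fit, passed for 1463 genes (7.39%), 635 in the direction of CD43+ cells being higher and 828 in that of their being lower. It passed for 458 of the 704 risen and 515 of the 786 fallen genes, in the same direction as the change, and for 4 risen genes in the opposite one.

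By list, 14 of 53 endothelial genes fell more in CD43+ cells, where the median change was -1.30 and that of CD43- cells -0.17. CDH5 in CD43- cells had means of 13991 ± 10665 (SD, n = 3) on day 6 and 8363 ± 3996 (SD, n = 3) on day 9, and the difference of the changes was -2.90 (adjusted p = 2.61e-04). Of 25 matrix genes, 13 differed in the same sense, and their median change in CD43- cells was 0.40. For the megakaryocyte list it was 21 of 47 and for myeloid signalling and surface genes 17 of 37, all toward a greater rise in CD43+ cells. Haemoglobin genes and interferon response genes shifted in both fractions. The median change of the globin genes was 1.43 in CD43+ and 1.48 in CD43- cells, and 1 of 10 differed. The median of their means went from 864 to 6285 in CD43+ cells. In CD43- cells it went from 1.65 to 15.3, near the floor. HBE1 stood at the highest value, 90700, in all 6 CD43+ samples, so its change there could not be seen. Interferon response genes had medians of 2.52 and 1.43, 4 of 15 rose in CD43- cells, and 3 of 15 differed. MX1 in CD43- cells went from 14.7 ± 5.0 to 151 ± 66.2 (SD, n = 3), less than in CD43+ cells by 3.02 on the log2 scale (adjusted p = 0.0012).

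**Figure D4:**
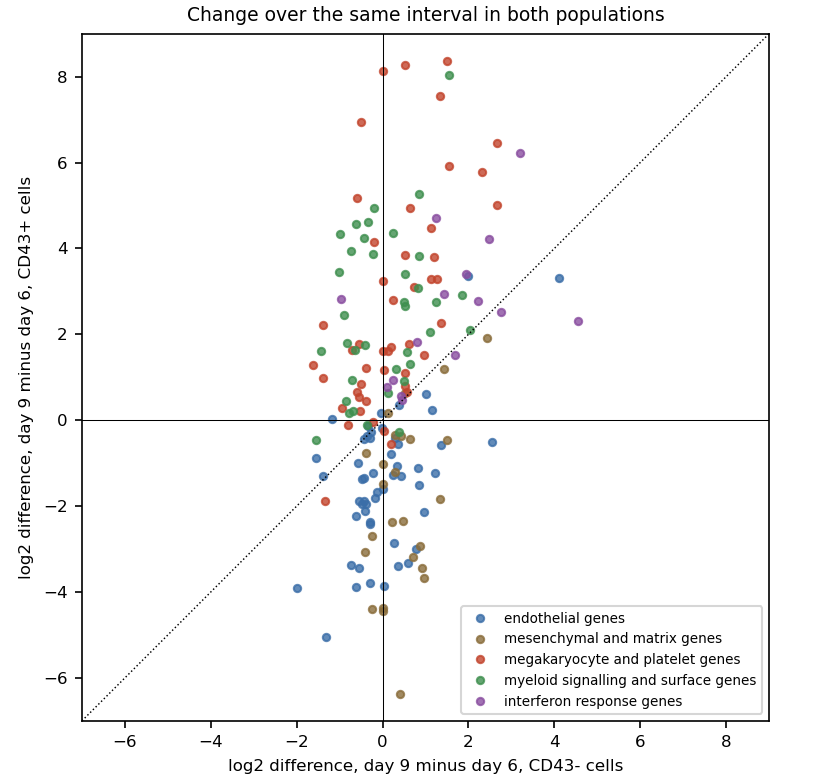
Log2 difference between day 9 and day 6 in CD43+ cells (vertical) against that in CD43- cells (horizontal) for members of 5 gene lists, 1 point a gene, with the line of equal change dotted. Matrix genes, with medians of -1.83 (CD43+) and 0.40 (CD43-), lie mostly below the line and megakaryocyte genes, with 1.78 and 0.13, mostly above it, while interferon response genes, with 2.52 and 1.43, are shifted to the right as well as up.

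The samples around this interval place the day 9 levels, with no test made. Day 4 cells were not sorted, and day 16 cells were sorted by CD45 as well. Every one of the 20 risen myeloid signalling genes and of the 13 risen granule genes had a higher mean on day 12 than on day 9. MPO was at 90700 in all day 12 and day 16 samples, and PRTN3 had means of 31736 ± 4713 and 25129 ± 6731 (SD, n = 3). Of the 8 risen genes of the erythroid lists, none was higher on day 12: SLC4A1 went from a mean of 6252 ± 3963 on day 9 to 398 ± 57.3 on day 12 and 8.7 ± 7.4 on day 16 (SD, n = 3). Megakaryocyte genes lay between, with 11 of 22 higher on day 12 and 18 of 22 higher on day 16. KIT was highest on day 9, at a mean of 2388 ± 625, against 353 ± 122 on day 6 and 463 ± 135 on day 12 (SD, n = 3). Over all 704 risen genes, 505 had a higher mean on day 12 than on day 9.

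Of the 16 fallen endothelial genes, 9 had a higher mean on day 6 than in unsorted day 4 cells, and 11 had a still lower mean on day 12, beside 296 and 488 of all 786 fallen genes. CDH5 went on from 494 ± 78.7 on day 9 to 219 ± 71.1 on day 12 (SD, n = 3). Of the 12 matrix genes that fell, 4 had a lower mean on day 12, and a difference between these lists was not tested. COL1A1 was at 2113 ± 1314 on day 9 and 5236 ± 1787 on day 12 (SD, n = 3).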

How the data were processed

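RNA from H1-derived cells was sequenced at 2 companies, and which samples went to which is not given in the sources used here. Per the study's methods, the authors' alignment and quantification used bowtie2 and RSEM against Ensembl v81, and the submitters' processing notes also list bcl2fastq, STAR 2.7 and hg38. The authors normalised tag counts for GC content and between samples (EDASeq v2.4.1) and deposited them as whole numbers, treated here as a score and not as counts. The deposited GC percent of each gene was not used. Per-sample depth cannot be read from these values.

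After adding 1 and taking log2, a linear model over 11 groups (33 samples, no replicate block) was fitted with R 4.3.3 and limma 3.58.1, whose eBayes step used a trend. The 19788 of 20255 genes that reached 10 in 3 or more samples entered it, with Benjamini-Hochberg adjustment over all of them. The study's thresholds were used, an adjusted p below 0.05 and a fold change above 4. The fit was tested on simulated data. Gene coordinates are those deposited with the values, and gene biotypes are from GENCODE v29.

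The comparison, the 18 gene lists and the rule for naming genes were chosen with earlier results of these data known. The rule names the key surface genes and 10 transcription factors, the 10 largest rises and falls with separate days, in each list up to 8 called genes and the 3 highest not called, and the 5 largest differences between fractions in each direction. Genes named with values outside this rule were chosen after their values were seen: LYVE1, MMRN1, CLDN5, TIE1, GJA4, GJA5, PDGFRA, PDGFRB, SELP, GP1BA, GP1BB, GP5, GP9, ITGB3, TUBB1, HBB, ALAS2, KLF1, HOXA5, HOXA7, HOXA9, HOXA10, AZU1, ELANE, LTF, CAMP, CEACAM8, CORO1A, NCF4, CYBA, CSF1R, CSF3R, CD14, TPSAB1, CD163, POU5F1 and the genes in no list under other observations. Of the listed genes, MMP8 was not tested and LILRB4, CMA1 and TSPO2 were not analysed here, and a few further genes are not reported here. Alternatives were other pseudocounts, filters, scalings, samples, variances and thresholds, a replicate block and leaving out each replicate, of which leaving out CD43- replicates was added after seeing the data.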

Additional observations from a re-analysis of the deposited data

Results flagged for a closer look

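These results met a fixed rule, that the change from day 6 to day 9 differed between CD43+ and CD43- cells by a test of the difference itself in the limma fit. It did for 1463 of 19788 genes (7.39%), and the 5 largest differences in each direction are given here on the log2(value + 1) scale. The change was greater in CD43+ cells for PRTN3 (9.52, adjusted p = 4.08e-04), IRF8 (9.16, adjusted p = 9.67e-07), RNASE2 (8.94, adjusted p = 3.46e-06), PF4V1 (8.14, adjusted p = 1.39e-08) and FGD2 (8.08, adjusted p = 4.48e-06). IRF8 and RNASE2 were listed at 0 in all day 6 CD43+ samples, so the size of their differences depends on the 1 added. FGD2, an exchange factor for Cdc42, was at 1, 0 and 1 on day 6 and at 190, 200 and 188 on day 9 in CD43+ cells, and had means of 3.7 and 0.3 in CD43- cells.

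The change was lower in CD43+ cells for ERICH3 (-7.0, adjusted p = 3.65e-05), CDH11 (-6.78, adjusted p = 1.39e-08), RGS5 (-6.50, adjusted p = 1.98e-12), SLC7A4 (-6.29, adjusted p = 3.52e-06) and HAPLN1 (-6.17, adjusted p = 3.91e-09). In ERICH3 and SLC7A4 the difference came from both sides: ERICH3 was at 14, 10 and 3 and then at 0, 0 and 1 in CD43+ cells and rose from a mean of 0.7 to 29.3 in CD43- cells, and SLC7A4 was at 64, 35 and 96 and then at 7, 4 and 20 and rose from 27.3 to 347. CDH11 kept means of 6543 and 8530 in CD43- cells.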

How the results depend on the processing

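The replicate numbers do not pair the CD43+ samples of both days, whose same-numbered deviations correlated at 0.001, -0.058 and -0.018. Same-numbered CD43+ and CD43- samples correlated at 0.198, 0.109 and 0.199 on day 6, above all differently numbered pairs (at most 0.030), and at 0.017, 0.078 and 0.038 on day 9. The replicate block was fitted to only the populations compared, so it differs from the main fit in 2 ways. Without the block, that fit called 1432 genes in CD43+ cells, 278 in CD43- cells and 1356 for the difference. In it 14 endothelial genes fell. With the block these counts were 1316, 225, 1256 and 11, against 1490, 347, 1463 and 16 in the main fit. Of the 1316 genes, 1303 were shared with the main fit. Of 180 named genes, SOX17 (adjusted p = 0.060), HBZ (adjusted p = 0.071), ADGRL4 and TNF lost their calls with the block. LYZ gained its call with the block and also in the same fit without it (adjusted p = 3.38e-04), where no named gene lost a call. A fold change above 2 gave 3208 called genes (1399 higher, 1809 lower), 746 in CD43- cells, 2476 for the difference and 31 fallen endothelial genes. A pseudocount of 10 gave 774 (393 higher, 381 lower), 153 and 869. It ended the call of 17 named genes. No named gene that was called in the main fit or in an alternative changed direction there. Sign changes of genes called in neither were not counted. Leaving out replicates gave 1368 to 1563 called genes, 668 to 746 higher and 700 to 849 lower, 302 to 362 in CD43- cells and 1248 to 1421 for the difference. The fallen endothelial genes were then 15 to 19, risen megakaryocyte genes 21 to 22 and granule and myeloid genes together 31 to 34. Over all 23 alternatives these counts were 11 to 31, 21 to 29 and 29 to 39. Values near ranks with unknown depth limit low genes most: 171 of 704 risen genes had a day 9 mean under 20.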

Other observations

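Some of the genes with the largest changes belong to no list and were chosen after their values were seen. OLIG1, a factor better known from the oligodendrocyte lineage, was listed at 0 in all day 6 CD43+ samples and stood at 166, 184 and 106 on day 9 (adjusted p = 5.87e-06), with day 12 and day 16 means of 1697 and 1565. CXCR3, a chemokine receptor of lymphocytes, was at 0, 0 and 1 and then at 102, 172 and 122, and its mean was 117 on day 12 and 3.3 on day 16. CD300A, an inhibitory receptor of myeloid cells, went from 2 in each sample to 544, 577 and 542 (7.53, SE 0.55, adjusted p = 8.01e-11), and it also rose in CD43- cells, from a mean of 18.7 to 277. LSP1, a leukocyte actin-binding protein, went from 4, 5 and 4 to 806, 910 and 755. FGF10, a fibroblast growth factor, fell from 65, 88 and 85 to 1, 0 and 4, and SOST, an antagonist of WNT signalling, from 110, 306 and 360 to 2, 2 and 16. KRT81, a hair keratin, fell in both fractions, from 202, 212 and 176 to 6, 4 and 4 in CD43+ cells and from a mean of 159 to 0 in CD43- cells.

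Replicates within a day differed by lineage. On day 9, the membrane and blood group genes were highest in replicate 1 (21 of 29, 72.4%) and lowest in replicate 2 (24 of 29, 82.8%), whereas endothelial genes were highest in replicate 3 (39 of 53, 73.6%), beside 30.1%, 29.1% and 28.4% of all genes. On day 6, megakaryocyte genes were highest in replicate 1 (32 of 47, 68.1%) and matrix genes in replicate 3 (20 of 25, 80.0%), beside 28.2% and 31.1%. Whether these follow from the cells sorted or from the libraries was not tested.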
